A study of Mus musculus with 20 samples.

Results

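The 9 genes described here are *Mttp*, *Scarb1*, *Lrp1*, *Lsr*, *Lpl*, *Lipc*, *Lcat*, *Pltp* and *Angptl8*, whose products assemble lipoproteins, remodel them in plasma or clear them from it. They were chosen by symbol from the 54532 genes of the liver count table, each symbol matched 1 Ensembl gene, and all 9 passed the filter on low counts that left 12289 genes for testing. Obese male C57BL/6J mice, kept on a high-fat diet (HFD) for the 12 weeks before, had Roux-en-Y gastric bypass (RYGB), an operation that reroutes food past most of the stomach and the upper small intestine, or a sham operation. For the next 8 weeks they ate chow or HFD, and liver polyA RNA was sequenced from 20 mice, 5 in each of 4 groups, named by operation and diet as Sham Chow and Sham HFD, RYGB Chow and RYGB HFD. All 4 groups thus share the genotype, the sex and the HFD feeding before surgery, and the chow groups differ from the HFD groups only in the diet after it. Each library came from 1 mouse drawn at random from a larger cohort, and the study describes the transcriptomes as those of the fasted state. Sham HFD mice were heavier than the mice of the other groups, so body weight and the combination of sham surgery with HFD cannot be told apart.

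The liver packs triglyceride and cholesteryl ester with apolipoprotein B into very-low-density lipoprotein, a step that needs the microsomal transfer protein encoded by *Mttp*. In plasma, lipoprotein lipase and hepatic lipase strip the triglyceride from these particles, and the remnants return to hepatocytes through receptors that include LRP1 and LSR. High-density lipoprotein (HDL) matures through lecithin-cholesterol acyltransferase (*Lcat*) and phospholipid transfer protein (*Pltp*), and delivers its cholesterol to the liver through the receptor SR-BI, the product of *Scarb1*.

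Counts per mouse summed to between 14604854 and 22537498. Values are given as CPM, a gene's count relative to the scaled total of its library with TMM factors between 0.916 and 1.13, and in the order of replicate numbers 1 to 5 within a group. Differences are log2 fold changes of the second group named over the first, from edgeR's quasi-likelihood test across all 12289 genes, and a gene was called where the Benjamini-Hochberg adjusted p, written as edgeR adjusted p, was under 0.05. The hepatocyte markers *Alb*, *Ttr*, *Apoa1*, *Serpina1c*, *Cyp2e1* and *Hnf4a* were abundant in every library. Their summed level was 71692.5 to 84443 CPM in Sham HFD and 100687.6 to 118974.2 CPM in RYGB HFD, without overlap, with 5 of the 6 higher and 1 lower in RYGB HFD. In the chow groups it ran from 74168.3 to 123515 CPM. Sham HFD replicate 4 stood apart, because the skeletal muscle markers *Ckm*, *Acta1*, *Myh1* and *Mb* summed to 277.6 CPM in it and to at most 0.058 CPM in each of the other mice. For the 9 genes, the calls of the edgeR fit of all 4 groups that involve Sham HFD are therefore also given without that mouse. In bulk tissue, fewer cells of a type and less RNA per cell cannot be told apart.

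To set levels of different genes side by side, CPM was divided by the length of all annotated exons of a gene together. That length can exceed the length of the transcripts expressed, so the order depends in part on the annotation. By this measure *Lcat* was the most abundant of the 9 with a mean over all mice of 313.3 CPM per kilobase. *Lipc* followed at 72.5, *Mttp* at 57.5, *Lrp1* at 56.5, *Lsr* at 38.2, *Angptl8* at 33.0, *Scarb1* at 26.0 and *Pltp* at 20.7, and *Lpl* was the lowest at 2.24. The spread between mice ran the other way in part. Over all 20 mice the highest CPM of *Lcat* was 1.34 times its lowest, against 10.9 times for *Lpl*, 5.97 times for *Pltp* and 5.01 times for *Angptl8*. *Lpl* rests on 73 to 773 counts per mouse and *Lrp1* on 10632 to 24120.

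**Figure D1:**
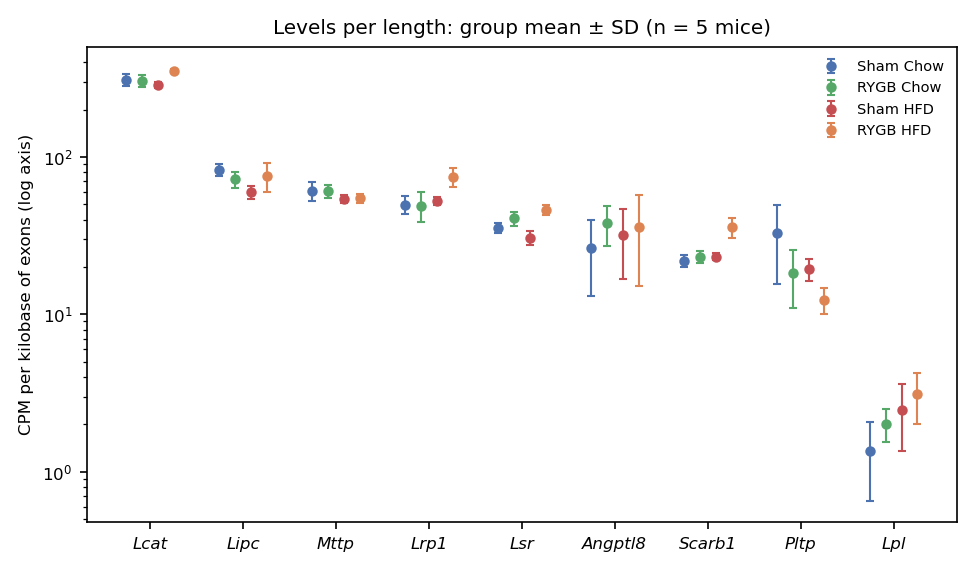
Level of each of the 9 genes per length, as CPM per kilobase of exon on a log axis, with points for group means and bars for ± SD (n = 5 mice a group). *Lcat* lies highest at a mean of 313.3 over all mice and *Lpl* lowest at 2.24, and the bars are widest for *Lpl*, *Pltp* and *Angptl8*.

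Under HFD, 4 of the 9 genes differed between RYGB and sham surgery. In Sham HFD vs. RYGB HFD, *Scarb1*, *Lsr*, *Lrp1* and *Lcat* were higher in RYGB HFD and none was lower, 4 of 9 called against 16.4% of all tested genes in either direction and 8.54% in the higher direction. All 5 RYGB HFD mice lay above all 5 Sham HFD mice for these 4 genes, which held for 7.25% of tested genes. The median log2 fold change of the 9 genes was 0.33, against 0.0095 over all tested genes. With library size in place of TMM, the share of all calls that were higher in RYGB HFD moved from 52% to 26.6%, while the count for the 9 genes stayed at 4 higher. The 3 receptors and the HDL enzyme rose, whereas the assembly gene *Mttp*, the lipases *Lpl* and *Lipc*, the transfer protein *Pltp* and the lipase inhibitor *Angptl8* did not pass the test.

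The same operation under chow gave no call among the 9. In Sham Chow vs. RYGB Chow, 0 of 9 passed by edgeR, against 0.057% of all tested genes, and DESeq2 and limma-voom also called 0. By edgeR 2 of 9 had an unadjusted p under 0.05 (*Lsr* and *Pltp*). The share of all tested genes at that threshold is not given here, so this count has no background. Diet after sham surgery moved 1 of 9, *Lipc*, which was lower in Sham HFD than in Sham Chow, against 21.6% of all tested genes and 10.7% in the lower direction (50.3% of those calls were higher in Sham HFD, and 80.4% with library size in place of TMM). After RYGB the diet moved 2 of 9, *Scarb1* and *Lrp1*, both higher in RYGB HFD than in RYGB Chow, against 3.65% of all tested genes and 1.99% in that direction. For both genes all 5 RYGB HFD mice lay above all 5 RYGB Chow mice, which held for 2.64% of tested genes.

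**Figure D2:**
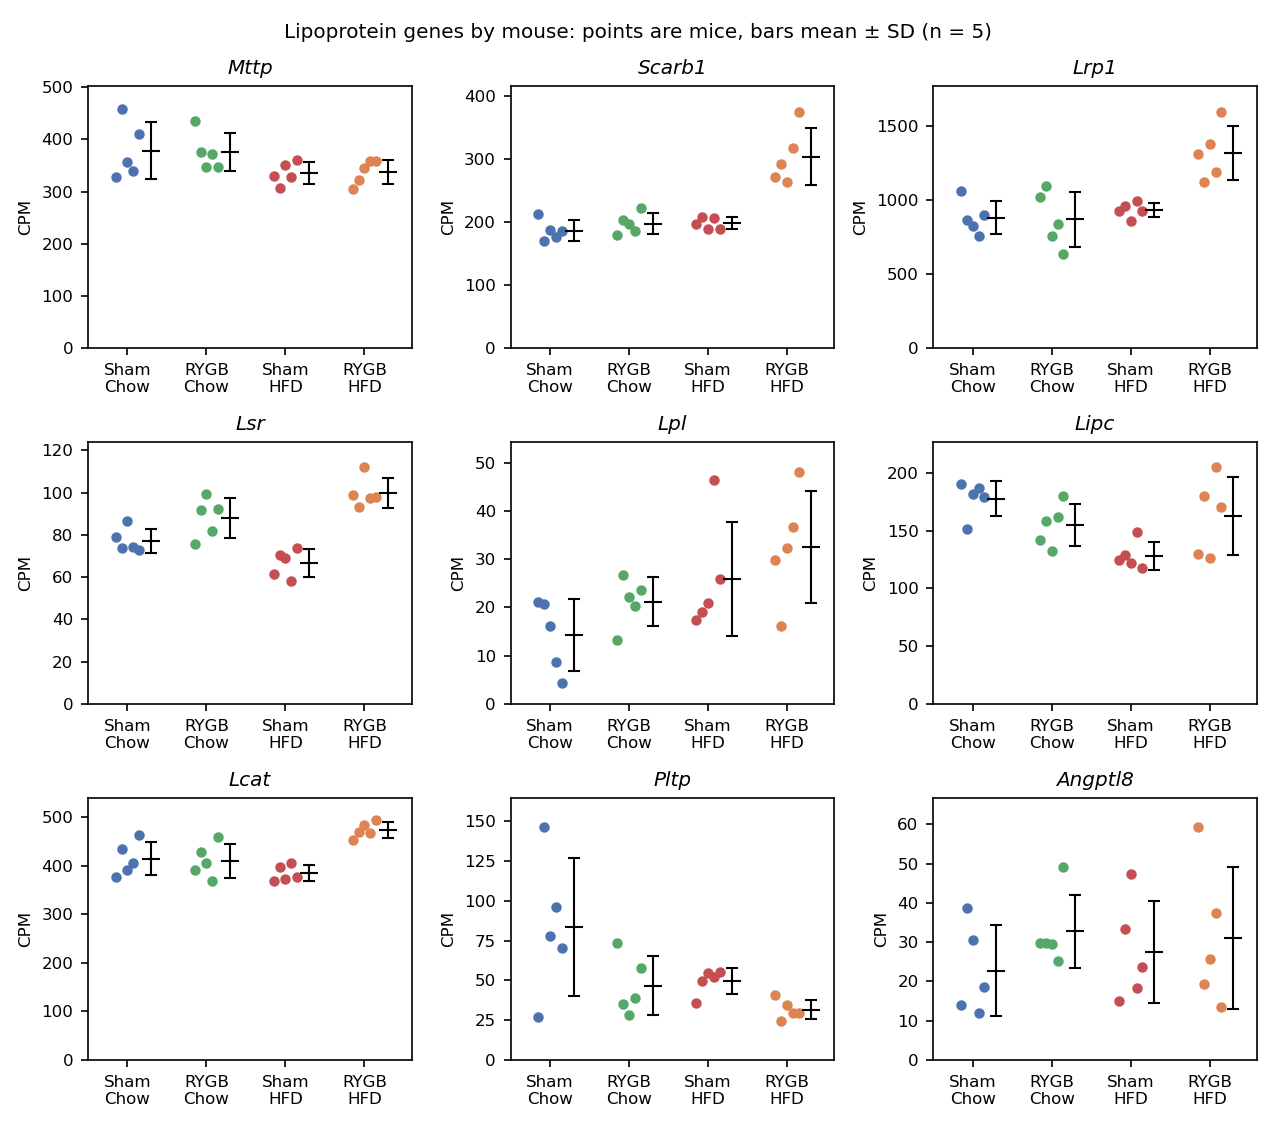
CPM of the 9 genes in each of the 20 mice (points, coloured by group) with the group mean ± SD (bars, n = 5), each panel on its own linear axis from 0. The RYGB HFD points of *Scarb1* lie between 263.2 and 374.4 CPM, above every mouse of the other groups, whereas those of *Angptl8* overlap all other groups.

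*Scarb1*, on GRCm38 chr5:125277087-125341094 (minus strand, Ensembl gene ENSMUSG00000037936), encodes the receptor that takes cholesteryl ester from HDL. Its level was 212.6, 169.8, 186.6, 176.1 and 185.8 CPM in Sham Chow and 178.9, 202.4, 197, 186.3 and 221.3 CPM in RYGB Chow. Under HFD it was 196.5, 208.1, 189.2, 206.7 and 188.6 CPM in the sham mice and 270.4, 291.6, 263.2, 316.9 and 374.4 CPM in the RYGB mice. Every RYGB HFD mouse was above every mouse of the other 3 groups, which overlapped one another. *Scarb1* was 1.53-fold higher in RYGB HFD than in Sham HFD (log2 fold change 0.62 ± 0.090 SE, edgeR adjusted p = 9.2e-05), and without Sham HFD replicate 4 the value was 0.63 (edgeR adjusted p = 0.00030). Diet after RYGB gave nearly the same size, 0.62 in RYGB Chow vs. RYGB HFD (edgeR adjusted p = 0.00052). Neither diet after sham surgery (0.09, edgeR adjusted p = 0.51) nor surgery under chow (0.08, edgeR adjusted p = 0.79) passed the test. In each comparison of RYGB HFD with one of the other groups, a two-sided exact permutation test on log2 of CPM + 0.5 gave p = 0.0079, the smallest that 5 mice against 5 allow.

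The surgery by diet interaction, the diet difference after RYGB minus that after sham surgery, was called for *Scarb1* alone of the 9 genes. It was 0.53 (95% interval 0.27 to 0.80, edgeR adjusted p = 0.019), and 0.55 without Sham HFD replicate 4 (edgeR adjusted p = 0.027), against a background of 5.06% of tested genes called in either direction and 2.48% with a positive interaction. DESeq2 called 4 of the 9, the other 3 being *Lsr* (0.39, DESeq2 adjusted p = 0.030), *Lipc* (0.54, DESeq2 adjusted p = 0.032) and *Lcat* (0.31, DESeq2 adjusted p = 0.021). By edgeR these missed the threshold, at adjusted p of 0.059 for *Lsr*, 0.067 for *Lipc* and 0.070 for *Lcat*. The background shares above are those of edgeR, and the share of all tested genes that DESeq2 called is not given here. Over all genes, the other tools, scalings, filters and designs called 447 to 932 interactions, against 622 in the main edgeR fit. With library size in place of TMM, 0 of 9 passed and *Scarb1* stood at 0.39 (edgeR adjusted p = 0.083). The share of positive interactions among all calls was 49% with TMM and 20.2% with library size. For *Lrp1* the interaction was 0.52 with an interval of 0.15 to 0.89 (edgeR adjusted p = 0.098).

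*Lrp1*, on chr10:127538161-127621148 (minus strand, ENSMUSG00000040249), encodes a large endocytic receptor for apolipoprotein E-bearing remnants and many other ligands. It measured 1061, 865.4, 823.1, 759.1 and 898.1 CPM in Sham Chow and 1021, 1093, 760.5, 840.8 and 634 CPM in RYGB Chow. Values were 923.5, 957.5, 858.1, 993.6 and 928.7 CPM in Sham HFD and 1312, 1123, 1381, 1187 and 1592 CPM in RYGB HFD. RYGB HFD lay above all other mice, its lowest mouse at 1123 CPM being close to RYGB Chow replicate 2 at 1093 CPM, and RYGB Chow had the widest spread of the remaining groups. *Lrp1* was 1.42-fold higher in RYGB HFD than in Sham HFD (0.50 ± 0.13 SE, edgeR adjusted p = 0.0095, and 0.52 with adjusted p = 0.015 without Sham HFD replicate 4). It was 1.52-fold higher in RYGB HFD than in RYGB Chow (0.60 ± 0.13 SE, edgeR adjusted p = 0.012), a call that was lost when only these 2 groups entered the fit (0.60, edgeR adjusted p = 0.071).

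*Lsr*, on chr7:30957770-30973464 (minus strand, ENSMUSG00000001247), encodes the lipolysis-stimulated lipoprotein receptor, which binds triglyceride-rich particles and is also a protein of tricellular junctions. The 5 Sham Chow mice had 78.9, 73.8, 86.4, 74.4 and 72.8 CPM, and the 5 RYGB Chow mice 75.5, 91.9, 99.5, 82.0 and 92.3 CPM. In Sham HFD it was 61.5, 70.5, 69.2, 58.0 and 73.8 CPM, and in RYGB HFD 99.1, 93.3, 112.1, 97.3 and 97.8 CPM. Sham HFD was the lowest group and RYGB HFD the highest, and these did not overlap, while each chow group overlapped at least one neighbour. *Lsr* was 1.5-fold higher in RYGB HFD than in Sham HFD (0.58 ± 0.084 SE, edgeR adjusted p = 8.0e-05, and 0.54 with adjusted p = 0.00037 without Sham HFD replicate 4). Group means ran from Sham HFD (66.6 CPM) over Sham Chow (77.2 CPM) and RYGB Chow (88.2 CPM) to RYGB HFD (99.9 CPM), and no 2 neighbours in this order passed the test (edgeR adjusted p = 0.073, 0.41 and 0.25). Groups further apart in the order did differ, with *Lsr* lower in Sham HFD than in RYGB Chow (-0.41, edgeR adjusted p = 0.0018, and -0.36 with adjusted p = 0.0068 without Sham HFD replicate 4) and higher in RYGB HFD than in Sham Chow (0.37, edgeR adjusted p = 0.010). Exons of the antisense gene *Gm4673* overlap those of *Lsr* by 946 bases. The libraries keep strand, but the strand setting of the counting is not given in the sources used here, so reads of the overlap could have been assigned to either gene or to none. *Gm4673* itself stood at 4.13 to 16.3 CPM and was not called in Sham HFD vs. RYGB HFD (-0.56, edgeR adjusted p = 0.11). In the other 2 comparisons that called *Lsr* it was called in the opposite direction, lower in RYGB HFD than in Sham Chow (-0.98, edgeR adjusted p = 0.016) and higher in Sham HFD than in RYGB Chow (0.74, edgeR adjusted p = 0.031).

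By the definitions that the study used for its gene sets, applied to the edgeR fit, *Lsr* and *Pltp* belonged to the RYGB-induced genes, those with an unadjusted p under 0.05 in the same direction in both surgery comparisons (2.85% of tested genes). In Sham Chow vs. RYGB Chow, however, the groups overlapped for both genes. The exact permutation test there gave p = 0.063 for *Lsr* and p = 0.18 for *Pltp*. *Lsr* also belonged to the Reversal genes, which in addition differ in the opposite direction between Sham Chow and Sham HFD (0.895% of tested genes). *Scarb1* and *Lrp1* were RYGB-specific HFD-induced genes, with an adjusted p under 0.05 in RYGB Chow vs. RYGB HFD and no shared diet difference (1.99%). The HFD-induced set, defined by both diet comparisons in 1 direction, held 0 of the 9 and 6.9% of tested genes. These sets restate the comparisons above by other thresholds and add no samples.

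**Figure D3:**
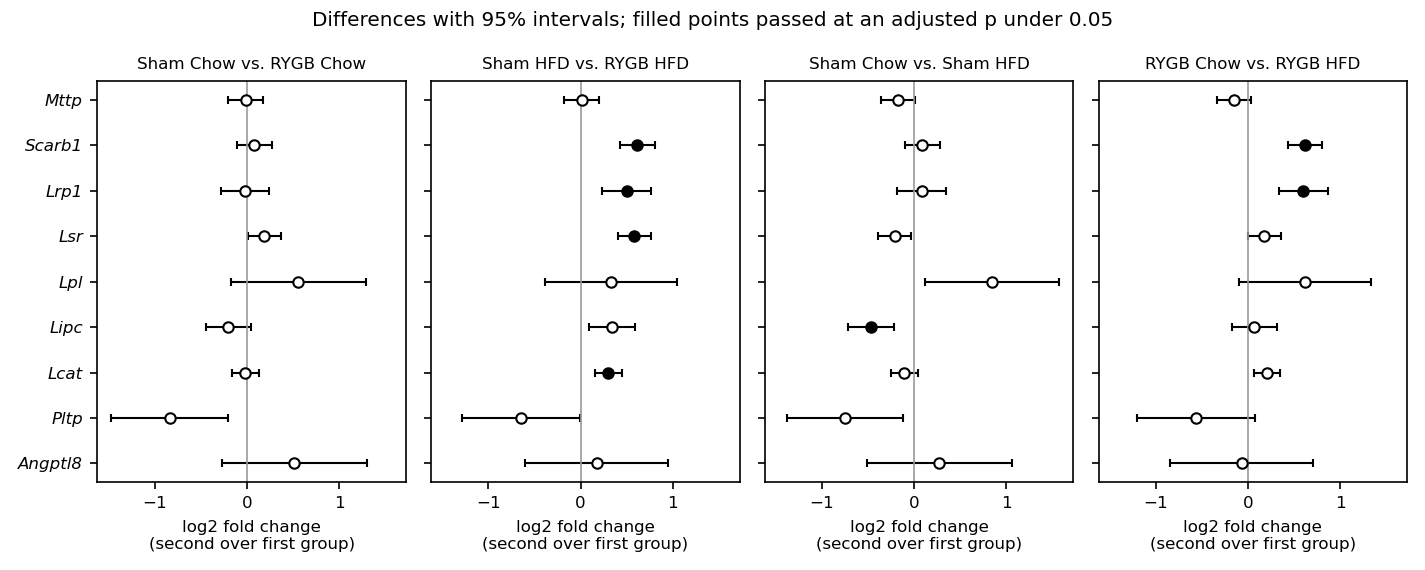
Log2 fold changes of the 9 genes in the 4 main comparisons, second group over first, with 95% intervals from the edgeR fit of all 20 mice, where filled points passed at an adjusted p under 0.05. Filled points lie to the right of 0 for *Scarb1*, *Lrp1*, *Lsr* and *Lcat* in Sham HFD vs. RYGB HFD, and the single filled point of Sham Chow vs. Sham HFD is *Lipc* at -0.47.

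Promoter sequence is shown for the 3 genes among the 4 that rose in RYGB HFD for which the RefSeq table (GRCm38.p6) holds it, so that the windows of genes with a shared direction can be read side by side. Of the 9 genes, 7 matched the table. Printed are the bases before the annotated start that lie in no exon, 5′ to 3′ on the gene's own strand, with GC boxes in capitals (GGGCGG on either strand, here read as CCGCCC).
Lrp1, chr10:127621149-127621398, minus strand: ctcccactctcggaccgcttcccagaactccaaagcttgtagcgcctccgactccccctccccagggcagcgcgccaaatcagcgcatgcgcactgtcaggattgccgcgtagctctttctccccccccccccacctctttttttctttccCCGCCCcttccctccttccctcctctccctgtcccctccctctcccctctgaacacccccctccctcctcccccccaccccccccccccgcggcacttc
Lsr, chr7:30973470-30973719, minus strand: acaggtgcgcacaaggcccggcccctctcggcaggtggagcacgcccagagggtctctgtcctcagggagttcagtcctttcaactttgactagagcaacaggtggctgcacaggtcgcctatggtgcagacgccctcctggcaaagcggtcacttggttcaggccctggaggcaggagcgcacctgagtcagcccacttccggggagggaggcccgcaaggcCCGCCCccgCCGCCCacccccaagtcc
Lcat, chr8:105943403-105943589, minus strand: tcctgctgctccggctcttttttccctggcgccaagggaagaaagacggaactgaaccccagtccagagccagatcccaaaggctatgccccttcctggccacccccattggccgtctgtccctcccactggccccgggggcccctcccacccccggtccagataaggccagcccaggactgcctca

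The *Lrp1* window held 1 GC box, at 99 to 94 bases before the start, and the *Lsr* window 2, at 27 to 22 and 18 to 13 bases before it, whereas the *Lcat* window held none. Of the 8 windows of the 7 matched genes, 4 had a GC box, 1 window each of *Lrp1*, *Lsr*, *Lipc* and *Pltp*, against 32.7% of the 32851 windows in the table. Both strands were also searched for the E-box CACGTG (6.02% of all windows), the sterol regulatory element TCACNCCAC (1.05%), AGGTCA repeated with 1 base between (0.0335%) or with 4 (0.0152%), the HNF4A core CAAAGTCCA (0.384%), the palindromic HNF1 motif (0.00913%) and the TATA box TATAAA (12.4%), with 0 matches in these 8 windows. Such matches describe letters in a short window and are not evidence of binding. The G and C content was 67.2% for *Lrp1*, 66.8% for *Lsr* and 60.8% for *Lcat*, against a median of 52.4% over all windows.

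*Lcat*, on chr8:105939551-105943382 (minus strand, ENSMUSG00000035237), encodes the secreted enzyme that esterifies cholesterol on HDL. In Sham Chow it measured 377.5, 434.6, 391.7, 404.8 and 463.5 CPM, and in RYGB Chow 391.7, 427.2, 405.2, 367.4 and 458.9 CPM. Sham HFD had 368.8, 396.6, 372.8, 406.4 and 377.3 CPM, and RYGB HFD 452.7, 468.9, 484.1, 466.5 and 493 CPM. The HFD groups did not overlap, but the highest mouse of each chow group lay above the lowest RYGB HFD mouse. *Lcat* was 1.23-fold higher in RYGB HFD than in Sham HFD, the smallest of the 4 calls (0.30 ± 0.070 SE, edgeR adjusted p = 0.0052, and 0.32 with adjusted p = 0.0079 without Sham HFD replicate 4). RYGB HFD against RYGB Chow gave 0.21 (edgeR adjusted p = 0.11) and against Sham Chow 0.19 (edgeR adjusted p = 0.095). The first passed by DESeq2 (adjusted p = 0.045) and the second with library size in place of TMM (edgeR adjusted p = 0.046). Summed markers of 4 cell types were likewise without overlap between the HFD groups. They were higher after RYGB for hepatocytes and lower for stellate cells (160.4 to 208.2 CPM in Sham HFD and 94.4 to 151.5 CPM in RYGB HFD, 3 of 6 markers called lower). The stellate markers did not all move together. Mean *Col3a1* was 55.82 CPM in Sham HFD and 20.33 CPM in RYGB HFD, whereas mean *Reln* was higher in RYGB HFD (61.94 and 68.53 CPM). The gut epithelium sum was lower too (2 of 4 markers called lower), and its marker *Apoa4* had means of 873.8 CPM in Sham HFD and 104.7 CPM in RYGB HFD. T and B cell markers summed to 4.097 to 5.178 CPM in Sham HFD and 1.396 to 2.825 CPM in RYGB HFD, and the 1 that was tested was not called. Of these, mean *Cd3e* went the other way, from 0.4653 CPM in Sham HFD to 0.5826 CPM in RYGB HFD. None of the 6 stellate cell markers was at 0 in a mouse, whereas the gut marker *Cdx2* was at 0 in all. The part of these cells in the 4 calls was not tested.

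*Pltp*, on chr2:164839518-164857711 (minus strand, ENSMUSG00000017754), encodes the protein that moves phospholipid between lipoproteins and enlarges HDL. Sham Chow mice measured 26.8, 146.4, 78.1, 96.2 and 70.4 CPM, the widest range of any group, and RYGB Chow mice 73.6, 35.0, 28.5, 38.9 and 58.0 CPM. The values were 35.9, 50.0, 54.6, 52.4 and 55.2 CPM in Sham HFD and 40.6, 24.5, 34.4, 29.5 and 29.4 CPM in RYGB HFD. Within HFD, 4 of the 5 Sham HFD mice lay above every RYGB HFD mouse. The difference in Sham HFD vs. RYGB HFD was -0.65 ± 0.31 SE (edgeR adjusted p = 0.16, exact permutation p = 0.016), and a fit of these 2 groups alone called it (-0.66, edgeR adjusted p = 0.0059). *Pltp* was lower in RYGB HFD than in Sham Chow (-1.40 ± 0.31 SE, edgeR adjusted p = 0.0091), the largest difference among the 9 genes, although Sham Chow replicate 1 at 26.8 CPM lay within the RYGB HFD range. Its exons share 495 bases with those of *Ctsa* on the other strand, a lysosomal enzyme gene at 123.1 to 205.9 CPM, which was called in the direction opposite to *Pltp*, higher in RYGB HFD than in Sham HFD (0.40, edgeR adjusted p = 0.0028) and than in Sham Chow (0.30, edgeR adjusted p = 0.041).

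In Sham Chow vs. RYGB HFD, the comparison across both factors, 5 of the 9 genes were called, 4 higher and 1 lower in RYGB HFD, against 7.67% of tested genes, 3.8% higher and 3.87% lower. *Scarb1* (0.70, edgeR adjusted p = 6.4e-05), *Lrp1* (0.58, edgeR adjusted p = 0.0085), *Lsr* and *Lpl* were the higher ones and *Pltp* the lower one. The first 3 had no overlap between the groups in this direction, as had 3.4% of tested genes. Of all calls 49.5% were higher in RYGB HFD, and 59.5% with library size in place of TMM. RYGB Chow vs. Sham HFD gave 1 of 9, *Lsr*, lower in Sham HFD without overlap, against 22.1% of tested genes called, 11.4% called lower and 7.7% lower without overlap. There 48.5% of all calls were higher in Sham HFD and 70.2% with library size. These comparisons share mice with the 4 above and are no further evidence for the same gene.

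*Lipc*, on chr9:70798128-70952226 (minus strand, ENSMUSG00000032207), encodes hepatic lipase, which hydrolyses triglyceride and phospholipid of remnants and HDL. Its level in Sham Chow was 189.9, 151.2, 181.8, 186.6 and 179.3 CPM, and in RYGB Chow 141.7, 157.9, 132.3, 161.9 and 179.8 CPM. Mice on HFD had 124.7, 128.5, 122, 148.7 and 117.8 CPM after sham surgery and 129.7, 179.6, 126.3, 205.4 and 170.7 CPM after RYGB. Sham HFD lay below Sham Chow without overlap, and the 5 RYGB HFD mice fell into 3 at or above 170.7 CPM and 2 near the Sham HFD level. *Lipc* fell by 0.47 on the log2 scale in Sham HFD relative to Sham Chow (± 0.12 SE, edgeR adjusted p = 0.0083), and by 0.53 without Sham HFD replicate 4 (edgeR adjusted p = 0.0071). Groups without overlap in this direction held for 8.06% of tested genes. Of the 6 hepatocyte markers, 3 were likewise lower in Sham HFD than in Sham Chow, and all 6 stellate cell markers were higher, with sums of 160.4 to 208.2 CPM against 62.3 to 110.9 CPM and none of them at 0 in either group. For the stellate marker *Des* the medians were close, 4.999 CPM in Sham HFD and 4.394 CPM in Sham Chow, and the highest Sham HFD mouse was at 32.17 CPM. The highest stellate sum, 208.2 CPM, was that of Sham HFD replicate 4, and the marker calls are not given without that mouse. The part of these cells in the *Lipc* difference was not tested. In Sham HFD vs. RYGB HFD the difference of 0.34 missed the threshold by edgeR (adjusted p = 0.056, 95% interval 0.091 to 0.59). It passed by DESeq2 (adjusted p = 0.040) and without Sham HFD replicate 4 (0.40, edgeR adjusted p = 0.039).

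*Lpl*, on chr8:68880491-68907448 (plus strand, ENSMUSG00000015568), encodes lipoprotein lipase, which acts on capillary walls of muscle and fat and is low in adult hepatocytes. Sham Chow mice had 21.1, 20.8, 16.1, 8.78 and 4.42 CPM, and RYGB Chow mice 13.2, 26.6, 22.2, 20.2 and 23.7 CPM. It was 17.4, 19.1, 20.9, 46.3 and 26.0 CPM in Sham HFD and 29.8, 16.1, 32.3, 36.6 and 48.0 CPM in RYGB HFD. The lowest values were Sham Chow replicates 4 and 5, and the groups overlapped in every comparison. *Lpl* was 2.26-fold higher in RYGB HFD than in Sham Chow (1.18 ± 0.35 SE, edgeR adjusted p = 0.044). That call was lost in 11 of the 20 fits that left out 1 mouse (adjusted p up to 0.11) and in the fit of these 2 groups alone (adjusted p = 0.080).

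Markers of other cells were set beside *Lpl* mouse by mouse. The highest Sham HFD value, 46.3 CPM, was that of replicate 4, the library with muscle transcripts, and without it the difference in Sham Chow vs. Sham HFD was 0.54 (edgeR adjusted p = 0.28) in place of 0.85 (edgeR adjusted p = 0.088). The 5 adipocyte markers, of which 1 was high enough to be tested, summed to 0.930 to 24.4 CPM in RYGB HFD and 2.68 to 9.74 CPM in Sham HFD, against 0.145 to 4.09 CPM in Sham Chow and at most 0.926 CPM in RYGB Chow. The tested one, *Cfd*, was called higher in RYGB HFD than in Sham Chow. In RYGB HFD the sum was almost all *Cfd*, which reached 24.43 CPM, while *Plin1* was at most 0.177 CPM and *Retn* was at 0. Of the 5 markers, *Adipoq* was at 0 in all 10 chow mice and at most 0.87 CPM in the others, and *Lep* was at 0 outside Sham HFD. The 6 Kupffer cell markers (*Clec4f*, *Vsig4*, *Cd5l*, *Timd4*, *Adgre1* and *Marco*), none of them at 0 in any group, summed to 91.7 to 246.2 CPM in Sham Chow, 188.5 to 464.3 in RYGB Chow, 214.9 to 298.6 in Sham HFD and 196.7 to 347.9 in RYGB HFD. Of these 6 markers, 3 were called higher in Sham HFD and 2 in RYGB HFD relative to Sham Chow. The highest *Lpl* mouse, RYGB HFD replicate 5 at 48.0 CPM, had the lowest adipocyte sum of its group, and the highest Kupffer sum, 464.3 CPM in RYGB Chow replicate 3, went with 22.2 CPM of *Lpl*. The 2 mice with the lowest *Lpl*, Sham Chow replicates 4 and 5, also had the lowest Kupffer sums, 100.3 and 91.7 CPM. The part of these cells in the *Lpl* values was not tested.

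**Figure D4:**
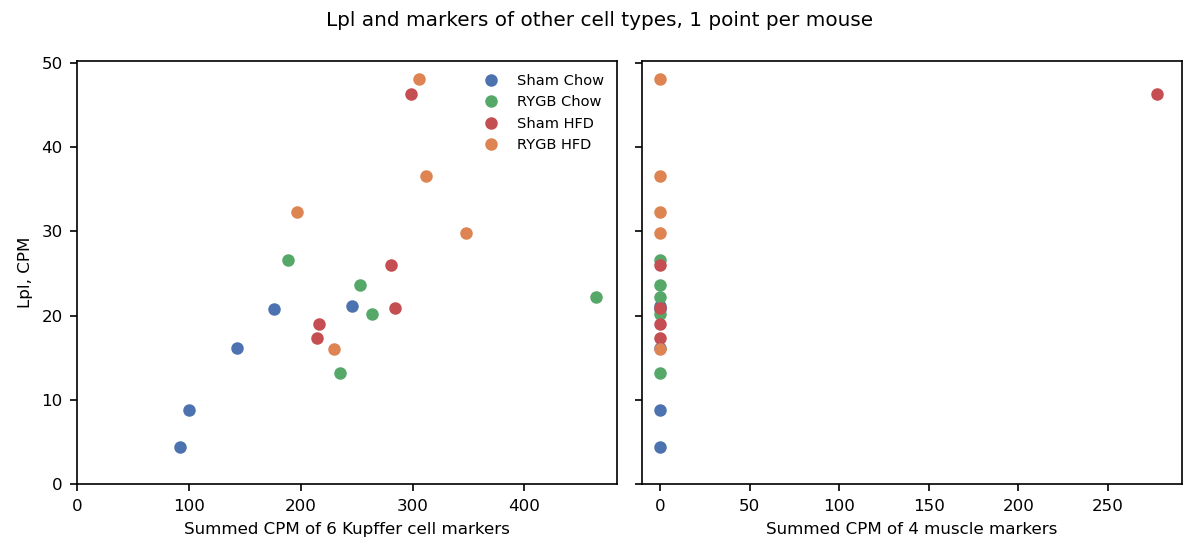
*Lpl* in CPM against the summed CPM of 6 Kupffer cell markers (left) and of 4 muscle markers (right), 1 point per mouse, coloured by group. Sham Chow replicates 4 and 5 sit at the lower left with 100.3 and 91.7 CPM of Kupffer markers, and Sham HFD replicate 4 stands alone on the right with 277.6 CPM of muscle markers.

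*Angptl8*, on chr9:21835510-21837347 (plus strand, ENSMUSG00000047822), encodes a feeding-induced liver protein that takes part in the inhibition of lipoprotein lipase. Its lowest, median and highest values were 11.8, 18.7 and 38.8 CPM in Sham Chow, 25.3, 29.7 and 49.0 CPM in RYGB Chow, 15.02, 23.7 and 47.3 CPM in Sham HFD, and 13.6, 25.7 and 59.4 CPM in RYGB HFD. All 4 groups overlapped, and within each HFD group the mice differed more than the group means did. None of the 7 tests called *Angptl8*, and the intervals were wide, from -0.60 to 0.95 in Sham HFD vs. RYGB HFD and from -0.27 to 1.30 in Sham Chow vs. RYGB Chow. A difference was not detectable at this spread between mice, and the intervals leave a change of up to 0.95 or 1.30 possible. The gene lies within *Dock6* on the other strand and shares 0 exonic bases with it.

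*Mttp*, on chr3:138089854-138144968 (minus strand, ENSMUSG00000028158), encodes the large subunit of the microsomal transfer protein, which loads lipid onto nascent apolipoprotein B. The lowest, median and highest values were 327, 356.6 and 457.6 CPM in Sham Chow and 346.6, 372.6 and 434.9 CPM in RYGB Chow. They were 306.8, 329.5 and 360.2 CPM in Sham HFD and 305.5, 344.8 and 359.3 CPM in RYGB HFD. The groups overlapped in all comparisons, and none of the 7 tests called the gene. Here the intervals were narrow, from -0.17 to 0.20 in Sham HFD vs. RYGB HFD and from -0.36 to 0.013 in Sham Chow vs. Sham HFD. The order of group means ran from Sham HFD (335 CPM) over RYGB HFD (338.1 CPM) and RYGB Chow (375.5 CPM) to Sham Chow (378.3 CPM), and no 2 of them differed by the edgeR test. The exact permutation test, without adjustment, gave p = 0.048 in RYGB Chow vs. Sham HFD and p = 0.063 in RYGB Chow vs. RYGB HFD, with larger p in the other comparisons.

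Correlations between the genes on log2 CPM differed between all mice and mice within groups. *Scarb1* and *Lrp1* had r = 0.75 over all mice and r = 0.15 after group means were removed, and *Scarb1* and *Lcat* had r = 0.71 and r = 0.26. *Scarb1* and *Lipc* showed the opposite order, with r = 0.24 over all mice and r = 0.65 within groups. These values describe 20 points that share libraries and depth, and carry no test.

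By the same measure over all tested genes, the 3 genes most like *Lrp1* were *Fn1* (r = 0.92), *F5* (r = 0.89) and *Trip12* (r = 0.88), with r = 0.78, 0.84 and 0.83 within groups. The nearest to *Lsr* were *Ptcd1* (r = 0.90), *Serpina11* (r = 0.87) and *Apcs* (r = 0.86), with r = 0.67, 0.29 and 0.65 within groups. To *Scarb1* they were *Itih3* (r = 0.86), *Hc* (r = 0.83) and *Plpp6* (r = 0.83), these 3 at no more than 0.42 within groups. For *Lpl* they were *Stat5b* (r = 0.83), *Lcp2* (r = 0.83) and *Ppp1r3c* (r = 0.80), with r = 0.83, 0.78 and 0.70 within groups. For *Angptl8* they were *Hes1* (r = 0.81), *Epha2* (r = 0.75) and *Phc2* (r = 0.75), with r = 0.82, 0.77 and 0.78 within groups. *Lipc* was most like *Gjb1* (r = 0.84), *Lcat* like *Tardbp* (r = 0.82), *Pltp* like *Ces1e* (r = 0.82) and *Mttp* like *Dpy19l1* (r = 0.80). Within groups these pairs had r = 0.70, 0.56, 0.70 and 0.74.

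The other genes of the pathway were read from 5 lists with 58 genes in all, each of which was tested. In Sham HFD vs. RYGB HFD, 11 of the 58 were higher in RYGB HFD, 9 were lower and 38 did not pass, against the 16.4% of all tested genes called and 8.54% called higher, and their median log2 fold change was -0.03 against 0.0095 over all tested genes. Sham Chow vs. Sham HFD gave 8 higher and 9 lower in Sham HFD, against 21.6% called and 10.7% called lower. These shares are also the background of the single lists that follow. After RYGB 1 of the 58 differed between diets (background 3.65%). In Sham Chow vs. RYGB Chow edgeR called 0 (background 0.057%), limma-voom 0 and DESeq2 1, where DESeq2 called 92 over all genes. By edgeR 11 of the 58 had an unadjusted p under 0.05 there, a count without a background, since that share of all tested genes is not given here.

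Among 10 genes of assembly and secretion, which act beside *Mttp*, Sham HFD vs. RYGB HFD gave 1 higher and 1 lower. *Sort1*, the sorting receptor sortilin, was higher (1.28, from 13.8 to 33.5 CPM, edgeR adjusted p = 0.00019) and *Sar1b*, a GTPase of vesicle budding, was lower (-0.32, edgeR adjusted p = 0.028). *Apob*, which encodes the scaffold of the particle, stood at 6581 CPM in Sham HFD and 6960 CPM in RYGB HFD and was not called (0.08, edgeR adjusted p = 0.65). In Sham Chow vs. Sham HFD, *Sort1* was the single call, lower in Sham HFD (-0.75, edgeR adjusted p = 0.012).

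Of 10 lipase cofactors and inhibitors, 3 were called between the HFD groups, 1 of them higher and 2 lower after RYGB. *Creb3l3*, a transcription factor of lipase cofactor genes, was higher (0.30, edgeR adjusted p = 0.011), and *Apoc3*, an inhibitor of triglyceride clearance, and *Apoa5*, an activator of it, were both lower (-0.64 and -0.56, edgeR adjusted p = 0.00047 and 0.032). In Sham HFD relative to Sham Chow 3 were lower and none was higher, among them *Angptl4* (-0.73, edgeR adjusted p = 0.0018) and *Creb3l3* (-0.34, edgeR adjusted p = 0.0045).

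The list of 16 further receptor and clearance genes had 5 calls between the HFD groups, 1 higher and 4 lower after RYGB, while the 3 receptors above were all higher. *Vldlr*, a receptor that is sparse in healthy liver, was lower (-1.77, from 13.7 to 4.01 CPM, edgeR adjusted p = 0.00015), as was *Cd36*, a fatty acid and lipoprotein receptor (-1.53, edgeR adjusted p = 0.00015). *Pdzk1*, the adaptor that holds SR-BI at the hepatocyte surface, was lower too (-0.35, from 39.8 to 31.1 CPM, edgeR adjusted p = 0.0042), opposite in direction to *Scarb1*. The fourth was *Apoe*, the ligand of remnant receptors (-0.31, edgeR adjusted p = 0.045). In Sham Chow vs. Sham HFD 4 of the 16 were higher in Sham HFD, *Cd36* (1.45, edgeR adjusted p = 0.00023), *Vldlr* (1.30, edgeR adjusted p = 0.0018), *Lipa* (0.38, edgeR adjusted p = 0.0096) and *Pdzk1* (0.22, edgeR adjusted p = 0.048), and 0 were lower.

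For HDL formation and cholesterol efflux, 4 of 10 genes were called between the HFD groups, 3 of them higher and 1 lower after RYGB. *Apom* (0.97, edgeR adjusted p = 6.2e-05) and *Apoa1* (0.88, edgeR adjusted p = 0.00026), apolipoproteins of HDL, were higher and *Apoa4* was lower (-3.06, from 873.8 to 104.7 CPM, edgeR adjusted p = 6.4e-05). *Apoa4* is also made by gut epithelium. The 4 gut epithelium markers, which include *Apoa4* itself, summed to 771.2 to 1612 CPM in Sham HFD and 132.6 to 293.1 CPM in RYGB HFD, and the 2 that were tested were both lower in RYGB HFD. The other of these, *Fabp2*, had means of 163.6 CPM in Sham HFD and 97.3 CPM in RYGB HFD, while *Vil1* was at most 0.293 CPM in any mouse and *Cdx2* was at 0 in all mice. The part of such cells in these values was not tested. *Abcg8*, which exports sterol into bile, was higher (0.45, edgeR adjusted p = 0.0023). Between Sham Chow and Sham HFD the 3 apolipoproteins differed in the opposite directions, *Apom* by -1.10, *Apoa1* by -0.49 and *Apoa4* by 3.74, and *Abcg1* was higher in Sham HFD (0.90, edgeR adjusted p = 0.020). Those 2 comparisons share the Sham HFD mice.

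Of 12 transcriptional regulators, the HFD groups differed in 6, with 5 higher and 1 lower after RYGB. *Xbp1*, a factor of the secretory pathway (0.56, edgeR adjusted p = 0.0057), *Hnf4a*, a factor that maintains hepatocyte identity (0.49, edgeR adjusted p = 0.017), and the sterol regulator *Srebf2* (0.47, edgeR adjusted p = 0.024) were higher. *Pparg*, which promotes lipid storage, was lower (-0.61, edgeR adjusted p = 0.0066). Diet after sham surgery gave 2 higher and 3 lower in Sham HFD, among them *Pparg* (0.62, edgeR adjusted p = 0.0057), *Xbp1* (-0.61, edgeR adjusted p = 0.0030) and *Hnf4a* (-0.43, edgeR adjusted p = 0.027). The 1 call of RYGB Chow vs. RYGB HFD over all 58 genes was *Srebf1*, a regulator of lipid synthesis, at 0.80 (edgeR adjusted p = 0.034), and its difference in Sham Chow vs. Sham HFD was 0.93 (edgeR adjusted p = 0.0032). *Hnf4a* and *Apoa1* are also among the 6 hepatocyte markers.

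**Figure D5:**
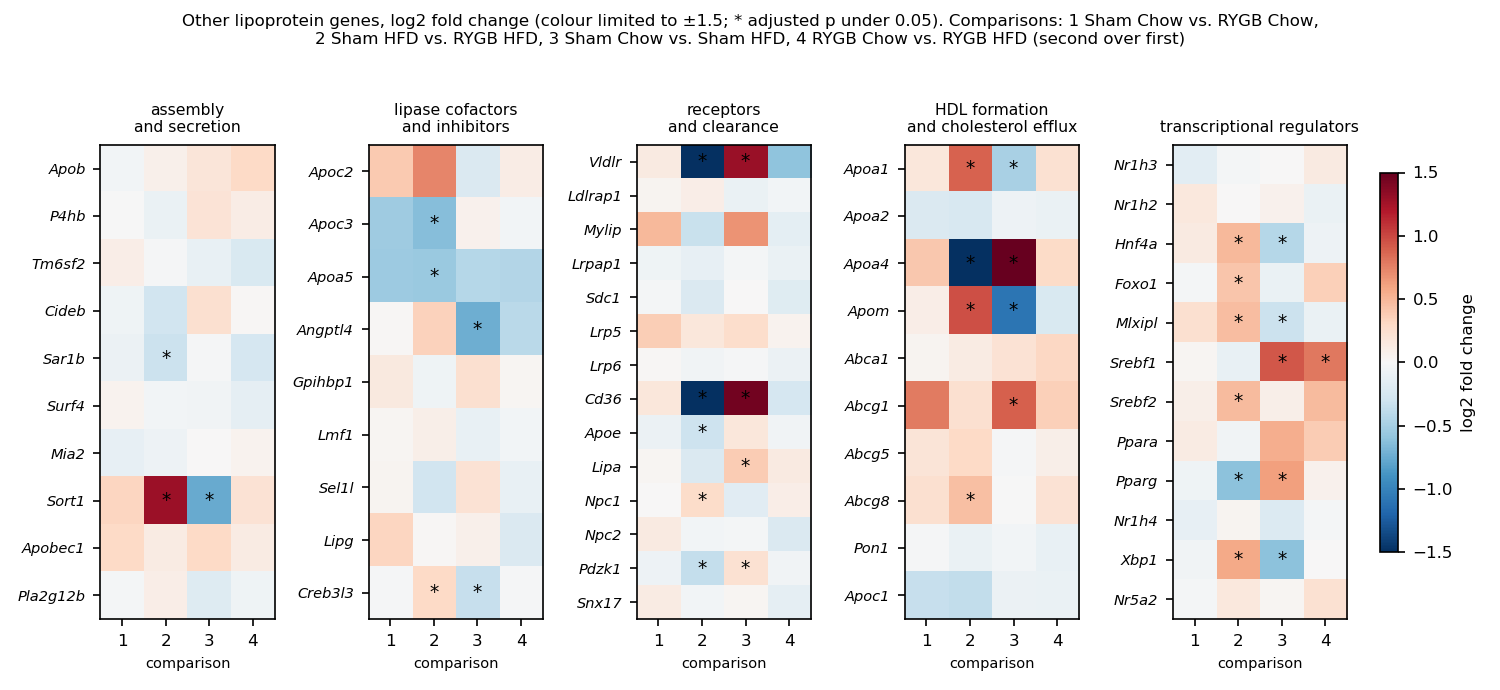
Log2 fold changes of 55 of the 58 other lipoprotein genes in the 4 main comparisons (columns 1 to 4 in each list), from blue (lower in the second group) to red (higher), with the colour limited at ±1.5 and a star for an adjusted p under 0.05. Stars gather in columns 2 and 3, the comparisons that contain Sham HFD, with 20 and 16 of the 55 genes drawn, against 0 in column 1 and 1 in column 4.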

How the data were processed

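The authors trimmed paired-end reads of stranded polyA libraries with Trimmomatic 0.36, aligned them to mm10 with HISAT2 2.1.0 and deposited raw counts per Ensembl gene from featureCounts 1.5.0-p3, without normalization. The annotation release and the strand setting are not given in the sources used here. Symbols, coordinates and exonic lengths were taken from GENCODE M21 (GRCm38).

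The study's filter was kept, which asks for at least 3 mice at or above a CPM of 2. One edgeR 4.0.16 quasi-likelihood model of all 4 groups (R 4.3.3) with TMM factors gave two-sided tests, where the study used DESeq2. The 9 genes were each compared between 2 groups by an exact permutation test on log2 of CPM + 0.5. Alternatives were DESeq2 1.42.0, limma-voom from limma 3.58.1, scaling by RLE factors or by library size alone, no low-count filter or a minimum CPM of 5, fits of the compared groups alone, the replicate number as a block, a pseudocount of 2 and leaving out each mouse. From each pathway list, at most the 4 calls with the largest change per comparison were named. *Apob* was added with its values known, and a few list genes are counted but not reported here by name. The 9 genes, the lists and the markers were chosen with earlier results of these data known. The GC and TATA boxes were added after the promoter windows had been read.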

Additional observations from a re-analysis of the deposited data

Results flagged for a closer look

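The surgery by diet interaction of *Scarb1* was a difference between groups by its own test, at 0.53 on the log2 scale (edgeR adjusted p = 0.019), with all 5 RYGB HFD mice above the other 15. In *Lipc*, the lowest Sham Chow mouse, replicate 2 at 151.2 CPM, stood far from the other 4 of its group. *Pltp* had a similarly distant lowest mouse in Sham HFD, replicate 1 at 35.9 CPM. For *Angptl8* the highest RYGB Chow mouse, replicate 5 at 49.0 CPM, was far from the others. Distant mice were sought by Dixon's ratio in 36 groups of 5, of which 3 were found, and chance flags about 1 in 20 groups.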

How the results depend on the processing

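The calls of *Scarb1*, *Lsr*, *Lrp1* and *Lcat* in Sham HFD vs. RYGB HFD and of *Lipc* in Sham Chow vs. Sham HFD kept their direction and stayed under the threshold in each alternative run, including each fit without 1 mouse. Over the 9 genes and 7 tests, 526 of the values from other tools, scalings, filters and designs kept their direction and their side of the threshold, 10 gained a call, 5 lost one and 8 changed sign. Among the fits without 1 mouse, 1202 kept both, 13 gained a call, 11 lost one and 34 changed sign. The 11 lost calls were all of *Lpl* in Sham Chow vs. RYGB HFD (0.94 to 1.22), which library size only (edgeR adjusted p = 0.050) and the block (edgeR adjusted p = 0.091) also lost. The cause of the changes below was not tested.

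Of the 9 genes, Sham Chow vs. Sham HFD called 2 with the replicate block and 1 to 2 without 1 mouse, where *Pltp* was the second without Sham Chow replicate 1 (-0.98, edgeR adjusted p = 0.0077). RYGB Chow vs. RYGB HFD called 1 in the fit of these 2 groups alone and 3 by DESeq2, the added one being *Lcat*. The interaction called 4 by DESeq2, 0 with library size only, 2 with the replicate block and 1 to 3 without 1 mouse, the 3 without RYGB Chow replicate 5. Over all genes, Sham Chow vs. RYGB Chow called 7, and 92 by DESeq2, 3 by limma-voom, 13 without a filter, 0 from the 2 groups alone and 0 to 15 without 1 mouse. RYGB Chow vs. RYGB HFD called 448, and 751 by DESeq2, 184 from the 2 groups alone and 244 to 488 without 1 mouse. Without 1 mouse, Sham Chow vs. RYGB HFD ran from 424 to 1202 calls (943 with all mice) and the interaction from 377 to 805 (622). With all mice, the interaction ran from 447 to 932 calls over the other alternatives.

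Library size only shifted the median of all genes by 0.13 in Sham Chow vs. Sham HFD and by -0.14 in the interaction. Under it values near 0 changed sign, namely *Mttp* (0.0359 in Sham Chow vs. RYGB Chow, -0.0805 in Sham HFD vs. RYGB HFD, -0.1163 in the interaction), *Lrp1* (0.0240 in Sham Chow vs. RYGB Chow) and *Lcat* (0.0324 in Sham Chow vs. RYGB Chow, 0.0210 in Sham Chow vs. Sham HFD). A minimum CPM of 5 gave *Mttp* -0.0040 in Sham HFD vs. RYGB HFD, and no filter gave *Scarb1* -0.0016 in RYGB Chow vs. Sham HFD. None of these values was called.

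Leaving out 1 mouse turned the sign of further values that were not called. In Sham Chow vs. RYGB Chow the range was -0.0687 to 0.0671 for *Mttp*, -0.1159 to 0.0769 for *Lrp1* and -0.0575 to 0.0275 for *Lcat*. In RYGB Chow vs. Sham HFD it was -0.0281 to 0.0486 for *Scarb1*, -0.0219 to 0.4037 for *Lpl* and -0.0438 to 0.309 for *Pltp*. In the interaction it was -0.0538 to 0.082 for *Mttp*, -0.411 to 0.0822 for *Lpl* and -0.1142 to 0.4154 for *Pltp*. In RYGB Chow vs. RYGB HFD it was -0.0297 to 0.1473 for *Lipc* and -0.4419 to 0.1184 for *Angptl8*. *Angptl8* ran from -0.1985 to 0.4534 in Sham HFD vs. RYGB HFD and from -0.0109 to 0.5508 in Sham Chow vs. Sham HFD, and *Mttp* from -0.0181 to 0.0476 in Sham HFD vs. RYGB HFD.

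The replicate numbers do not pair the mice by any label. Over 30 pairs of groups and numbers the deviations of same-numbered mice correlated between -0.257 and 0.16, 5 of them over 0.1, and 3 of 20 mice correlated best with their own number. With the replicate number as a block, *Lsr* was called in Sham Chow vs. Sham HFD (edgeR adjusted p = 0.043) and in the interaction (edgeR adjusted p = 0.037), and *Lipc* in Sham HFD vs. RYGB HFD (edgeR adjusted p = 0.048).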
